A study of Homo sapiens with 9 samples.

Results

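The transcription factors CDX1, CDX2, HNF4A, HNF4G, GATA6, ISX and ELF3 maintain the identity of the intestinal epithelium. They were taken by gene symbol, and all 7 were found among the 58920 gene symbols listed in the count data. Their RNA was measured in LIM1215, a human colorectal cancer cell line, and in derivatives of it that had been made resistant to cetuximab, an antibody against the EGF receptor. LIM1215-R1 and LIM1215-R2, labelled Resistant_1 and Resistant_2, were selected independently of each other by exposing LIM1215 cells to rising cetuximab concentrations over months, and both are mixed populations rather than single clones. The study reported activating HRAS mutations in subpopulations of both resistant lines, and the mutation differed between the lines. Whether these mutations bear on the factors was not tested. LIM1215-parental cells, labelled Parental, were kept in culture for the same time without cetuximab. RNA of untreated cells was sequenced in 3 libraries per line, 9 in all. The question was how the expression of these factors differed between the resistant lines and the parental line, and between the resistant lines.

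CDX1 and CDX2 are homeobox proteins, and CDX2 is the factor that sets the intestinal against the gastric fate of the gut lining and is widely used as a marker of colorectal origin. HNF4A and HNF4G are related nuclear receptors that bind the enhancers of enterocyte genes together with CDX2 and GATA factors. GATA6 is the zinc finger GATA factor of the colon, ELF3 is an ETS factor restricted to epithelia, and ISX is a homeobox repressor that is induced by retinoic acid and lowers the uptake and cleavage of carotenoids.

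Total counts per library lay between 13737416 and 18725014, and 3 counts in a library corresponded to 0.158 to 0.217 counts per 1000000 (CPM), which limits what a count of 0 can show. This limit and the counting intervals below cover counting error only. CPM values are scaled with TMM factors, which lay between 0.984 and 1.017, and are given as mean ± SD of the 3 libraries of a line. Differences were tested with edgeR over 19102 genes in 1 model. A gene was called higher or lower at a Benjamini-Hochberg adjusted p of at most 0.01, and a called gene that moved by 1.5 or more on the log2 scale in either direction was a differentially expressed gene (DEG). The 3 libraries of a line were described as technical replicates in the study, so that the adjusted p measures the spread between these libraries and a difference in culture cannot be told apart from a difference between the lines. In bulk RNA, fewer expressing cells and less RNA per cell cannot be told apart either. The 5 epithelial markers read here summed to 11400 to 11700 CPM in LIM1215-parental cells. Their sum was 15000 to 15300 CPM in LIM1215-R1 and 13600 to 14000 CPM in LIM1215-R2. Among them, EPCAM fell from 911 ± 25.6 CPM in parental cells to 758 ± 47.1 and 729 ± 4.80 CPM in LIM1215-R1 and LIM1215-R2. KRT8, KRT18 and KRT19 rose in both lines, and CDH1 was not called.

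The promoters of CDX2, the most abundant of the factors, and of ISX, which moved the other way, are shown because they place the factors' own short recognition words on the genes that fell and rose. The sequences are the 250 bases before the start site from RefSeq (GRCh38.p14), written from 5′ to 3′ on the strand of the gene, and lie at chr13:27969316-27969565 on the minus strand for CDX2 and at chr22:35065908-35066157 on the plus strand for ISX. Capitals mark TTTAT (CDX), CAAAG (HNF4), GATAA (GATA) and AGGAAG (ETS factors such as ELF3) on either strand.
CDX2: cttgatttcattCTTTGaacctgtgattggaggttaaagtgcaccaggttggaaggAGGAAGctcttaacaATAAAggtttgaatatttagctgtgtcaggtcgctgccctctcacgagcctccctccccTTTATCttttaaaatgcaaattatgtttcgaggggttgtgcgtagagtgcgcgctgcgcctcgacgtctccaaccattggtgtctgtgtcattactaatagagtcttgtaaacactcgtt
ISX: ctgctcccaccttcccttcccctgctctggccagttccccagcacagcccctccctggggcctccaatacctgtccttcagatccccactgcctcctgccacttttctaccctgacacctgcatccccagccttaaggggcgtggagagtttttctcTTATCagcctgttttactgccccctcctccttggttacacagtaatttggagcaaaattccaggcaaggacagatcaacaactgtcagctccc
In the CDX2 promoter the HNF4 word stood at position -238 from the start site, the ETS word at -194 and the CDX word at -179 and -120, where the latter match overlapped a GATA word at -119. In the ISX promoter the GATA word stood at -93, and the other 3 words were not found in its window of 300 bases, which runs to 50 bases after the start. Among 27305 promoters of that length, TTTAT was found in 35.8%, CAAAG in 47.6%, GATAA in 23.2% and AGGAAG in 33.7%, so single matches of such short words are common. Of the other members with an entry, GATA6 held the CDX word at -30, HNF4A held the GATA word at -25 and the ETS word at 12, and ELF3 held the CDX word at -33, where its letters, ATAAA, are also those of a TATA box.

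Of the 7 factors, 6 fell in both resistant lines and ISX rose. In LIM1215-R1 against parental cells, 6 of 7 members were called lower, against 13.4% of all genes tested, and 1 of 7 was called higher, against 14% of all genes. In LIM1215-R2 against parental cells the counts were again 6 lower and 1 higher, against 11.6% and 12.3% of all genes. These shares are not matched for level, and genes with few counts are called less readily. By level per transcript length in parental cells, the 6 factors that fell ranked between percentile 72.8 (HNF4G) and 98.1 (CDX2) of genes with reads. ISX was the only member that was a DEG in LIM1215-R1, where 5.14% of all genes tested were DEGs, and in LIM1215-R2, where 4.82% were. The 6 other factors changed by less than the DEG threshold. The median log2 fold change of the members was -0.55 in LIM1215-R1 and -0.65 in LIM1215-R2, while that of all genes tested was -0.0106 and -0.0037. Both comparisons use the same parental libraries. The members and the gene lists below were chosen with earlier results of these data known. Their counts beside the shares of all genes are therefore descriptions and not independent tests. For each of the 7 members and in both comparisons, the libraries of the resistant line and the parental line did not overlap. How many of all genes tested also showed no overlap was not counted, so this is not read as particular to the members.

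**Figure D1:**
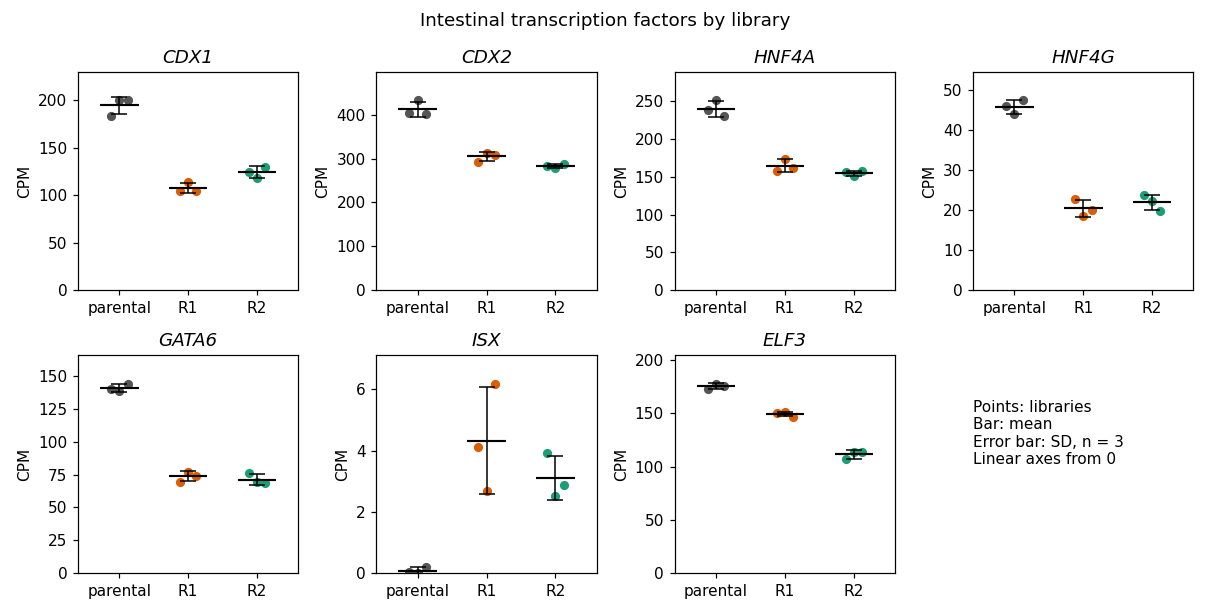
CPM of each factor (linear axes from 0) in each of the 9 libraries, with points for libraries, bars for means and error bars for the SD. All resistant libraries lie below all parental ones for 6 factors and above them for ISX, and ELF3 is the factor with the clearest step between LIM1215-R1 (149 CPM) and LIM1215-R2 (112 CPM).

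The homeobox genes CDX1 and CDX2 were both lower in the resistant lines. CDX1 (chr5:150166778-150184558, positions here and below from RefSeq, GRCh38.p14) was measured at 184, 200 and 200 CPM in the parental libraries, at 104, 114 and 105 CPM in LIM1215-R1 and at 125, 118 and 130 CPM in LIM1215-R2. The parental libraries were the highest, and those of LIM1215-R1 all lay below those of LIM1215-R2. CDX1 fell by 0.85 on the log2 scale in LIM1215-R1 (SE 0.0534, adjusted p = 3.91e-13), to 55.4% of the parental level, and by 0.65 in LIM1215-R2 (SE 0.0529, adjusted p = 9.23e-11), to 63.8%. CDX2 (chr13:27960918-27969315) stood at 404, 433 and 402 CPM in parental cells. It was at 293, 313 and 309 CPM in LIM1215-R1 and at 284, 278 and 287 CPM in LIM1215-R2, so that the decrease was smaller than that of CDX1 in relative terms and the resistant lines lay close to each other. CDX2 retained 73.9% of the parental level in LIM1215-R1 (log2 fold change -0.44, SE 0.0434, adjusted p = 4.66e-09) and 68.5% in LIM1215-R2 (log2 fold change -0.54, SE 0.0435, adjusted p = 6.04e-11). A fit added after the data were seen removed trends on GC content and length. For LIM1215-R1 it gave -1.07 for CDX1 and -0.61 for CDX2. Both lay outside the 95% intervals of the main fit, -0.96 to -0.74 and -0.52 to -0.35.

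HNF4A and HNF4G differed in how far they fell. HNF4A (chr20:44355699-44434596), the more abundant of the pair, had 238, 251 and 230 CPM in the parental libraries, 157, 174 and 162 CPM in LIM1215-R1 and 156, 151 and 157 CPM in LIM1215-R2. The resistant lines overlapped each other, and the level was 68.4% of parental in LIM1215-R1 (log2 fold change -0.55, SE 0.0492, adjusted p = 6.19e-10) and 64.5% in LIM1215-R2 (log2 fold change -0.63, SE 0.0493, adjusted p = 3.72e-11). HNF4G (chr8:75407649-75566834) had 46.1, 44.1 and 47.5 CPM in the parental libraries, 22.8, 18.5 and 20.1 CPM in LIM1215-R1 and 23.7, 22.4 and 19.9 CPM in LIM1215-R2. Of the 6 factors that fell, HNF4G had the lowest share of its parental level left in both lines, 44.6% in LIM1215-R1 (log2 fold change -1.16, SE 0.0822, adjusted p = 4.95e-12) and 47.9% in LIM1215-R2 (log2 fold change -1.06, SE 0.0814, adjusted p = 2.68e-11). Its 95% intervals, from -1.33 to -1.0 and from -1.23 to -0.90, overlapped those of GATA6.

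GATA6 (chr18:22169589-22202528) had 140, 138 and 144 CPM in the parental libraries. In LIM1215-R1 it stood at 69.6, 77.3 and 74.2 CPM and in LIM1215-R2 at 75.8, 69.3 and 68.5 CPM, with the resistant lines overlapping at about the same level. It fell by 0.93 on the log2 scale in LIM1215-R1 (95% interval -1.05 to -0.82, adjusted p = 1.63e-13) and by 0.98 in LIM1215-R2 (95% interval -1.10 to -0.87, adjusted p = 5.68e-14), to 52.4% and 50.6% of the parental level. GATA4 and GATA5, paralogs of GATA6, had 0 counts in all 9 libraries, so that GATA6 was the only gene of these 3 with reads.

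ELF3 (chr1:202010587-202017183) was the only member that was called in all 3 comparisons of the lines. It had 173, 178 and 176 CPM in the parental libraries, 150, 151 and 147 CPM in LIM1215-R1 and 107, 114 and 114 CPM in LIM1215-R2. No library of any line overlapped with another line, and the order was parental, LIM1215-R1, LIM1215-R2. ELF3 fell by 0.24 on the log2 scale in LIM1215-R1 (SE 0.0472, adjusted p = 0.000212), the smallest change of the 7 members in either line, and by 0.66 in LIM1215-R2 (SE 0.0480, adjusted p = 1.02e-11), to 84.9% and 63.4% of the parental level. EHF, another epithelial ETS factor, was not called in either line (log2 fold change -0.09 in LIM1215-R1 and -0.14 in LIM1215-R2, adjusted p = 0.142 and 0.0184), although in LIM1215-R2 it was called lower without LIM1215-parental replicate 2 (adjusted p = 0.00804), without LIM1215-R1 replicate 2 (0.007) and with total counts only (0.00898). SPDEF, the ETS factor of goblet cells, had 15, 8 and 7 counts in the 3 lines and was not called.

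ISX (chr22:35066158-35087387) was close to absent in parental cells and was detected in every resistant library. It had 1, 0 and 4 counts in the parental libraries, 67, 43 and 99 counts in LIM1215-R1 and 66, 41 and 44 counts in LIM1215-R2. In CPM these are 0.0590, 0 and 0.210 in parental cells, 4.11, 2.7 and 6.19 in LIM1215-R1, and 3.92, 2.54 and 2.87 in LIM1215-R2. The spread within LIM1215-R1, from 2.7 to 6.19 CPM, covered 2 of the 3 values of LIM1215-R2. The ratio of summed counts, scaled for library size, was 43.2 in LIM1215-R1 (exact 95% counting interval 18.2 to 134) and 31.2 in LIM1215-R2 (13.1 to 97.4). ISX rose by a fitted log2 fold change of 5.33 in LIM1215-R1 (SE 0.473, adjusted p = 5.02e-10) and of 4.86 in LIM1215-R2 (SE 0.503, adjusted p = 9.64e-09). The size of this change rests on 5 parental counts and on the method: without LIM1215-parental replicate 3 it was 6.75 and 6.28, and with the shrinkage of DESeq2 it was 2.39 and 2.02. All of these remained past the threshold. ISX was still the least expressed member in the resistant lines.

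**Figure D2:**
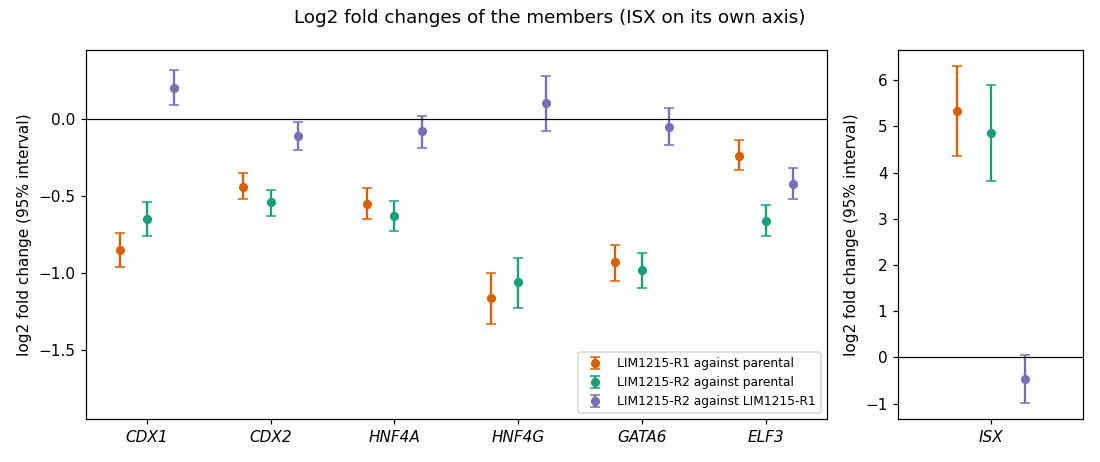
Log2 fold changes of the 7 factors with 95% intervals from the edgeR fit (vertical axes) for each resistant line compared with parental cells and for the resistant lines compared with each other, with ISX on an axis of its own. HNF4G and GATA6 lie lowest, between -1.16 and -0.93, ISX lies near 5, and ELF3 shows the largest difference between the resistant lines among the 6 other factors.

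Between the resistant lines, 1 of 7 members was called. ELF3 was lower in LIM1215-R2 than in LIM1215-R1 by 0.42 on the log2 scale (-0.42, SE 0.0483, adjusted p = 4.74e-07), with all LIM1215-R2 libraries below all LIM1215-R1 libraries. Of all genes tested, 3.77% were called lower and 3.39% higher in this comparison, and 0.764% were DEGs, with no member among them. CDX1 was higher in LIM1215-R2 by 0.20 (95% interval 0.09 to 0.32) and missed the threshold (adjusted p = 0.0114), although its libraries did not overlap. It passed without LIM1215-parental replicate 2 (adjusted p = 0.00575), without LIM1215-R1 replicate 2 (adjusted p = 0.00387) and with DESeq2 (adjusted p = 0.00866). For CDX2 the difference was -0.11 (95% interval -0.20 to -0.02, adjusted p = 0.107), and all LIM1215-R2 libraries lay below those of LIM1215-R1. The remaining factors overlapped between the lines, with differences of -0.08 for HNF4A (95% interval -0.19 to 0.02), 0.10 for HNF4G (-0.08 to 0.28), -0.05 for GATA6 (-0.17 to 0.07) and -0.47 for ISX (-0.98 to 0.04).

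The balance within each pair of related factors was read from the log2 ratio of their counts in a library, which does not depend on the scaling between libraries. For CDX1 to CDX2 the log2 ratio was -1.13, -1.11 and -1.01 in parental cells, -1.49, -1.46 and -1.55 in LIM1215-R1 and -1.19, -1.23 and -1.14 in LIM1215-R2. CDX1 thus lost ground to CDX2 by 0.42 in LIM1215-R1 and by 0.10 in LIM1215-R2 on the log2 scale (differences of means -0.42 and -0.10), with no overlap between either line and the parental libraries. The resistant lines differed from each other by 0.31, again without overlap. For HNF4G to HNF4A the log2 ratio was -2.37, -2.51 and -2.28 in parental cells, -2.78, -3.23 and -3.00 in LIM1215-R1 and -2.72, -2.76 and -2.98 in LIM1215-R2. The parental ratios were the highest, the difference was -0.62 in LIM1215-R1 and -0.43 in LIM1215-R2, and the resistant lines overlapped. In the two-sided exact permutation test each of the 5 differences without overlap had p = 0.1, the smallest that 3 against 3 libraries allow, and the difference between the resistant lines in HNF4G to HNF4A had p = 0.2. Adjusted over the 6 tests, the exact p-values were 0.12 and 0.2, so the design could not reach 0.05.

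**Figure D3:**
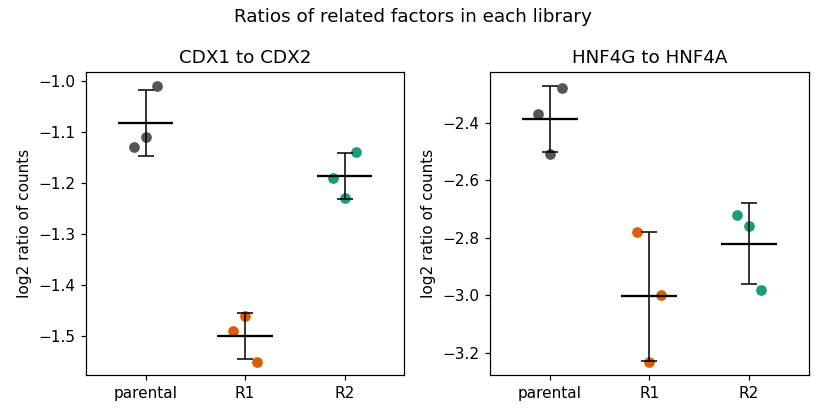
Log2 ratio of the counts of CDX1 to CDX2 and of HNF4G to HNF4A (vertical axes, which do not start at 0) in each library, with points for libraries, bars for means and error bars for the SD of 3 libraries. In the CDX panel LIM1215-R1 lies apart at about -1.5, while in the HNF4 panel both resistant lines lie below -2.7 and overlap.

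To order the factors by level, counts were divided by transcript length and scaled to transcripts per 1000000 (TPM), with the longest GENCODE transcript of each gene. In parental cells CDX2 was the highest at 397 ± 12.7 TPM, followed by CDX1 at 364 ± 16.2, HNF4A at 168 ± 5.90, GATA6 at 129 ± 4.09, ELF3 at 117 ± 1.10, HNF4G at 36.3 ± 1.67 and ISX at 0.0885 ± 0.107 TPM. In LIM1215-R1 the order was CDX2 at 283 ± 6.97, CDX1 at 194 ± 7.32, HNF4A at 111 ± 4.61, ELF3 at 95.7 ± 1.31, GATA6 at 65.1 ± 2.74, HNF4G at 15.6 ± 1.83 and ISX at 4.10 ± 1.68 TPM. In LIM1215-R2 it was the same, with CDX2 at 273 ± 3.15, CDX1 at 232 ± 9.39, HNF4A at 108 ± 1.68, ELF3 at 74.3 ± 2.72, GATA6 at 65.3 ± 4.06, HNF4G at 17.4 ± 1.65 and ISX at 3.06 ± 0.723 TPM. GATA6 and ELF3 therefore exchanged places between the parental and the resistant lines. No neighbours in the order overlapped between libraries in any line. The order depends on the length that is used: with the mean length of a gene's transcripts, CDX1 moved to the fourth place in each line, behind HNF4A and ELF3, and ELF3 stood above GATA6 in all 3 lines, so that the exchange of GATA6 and ELF3 was not seen. CDX2 first, HNF4G sixth and ISX last were the same with both lengths in all 3 lines.

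**Figure D4:**
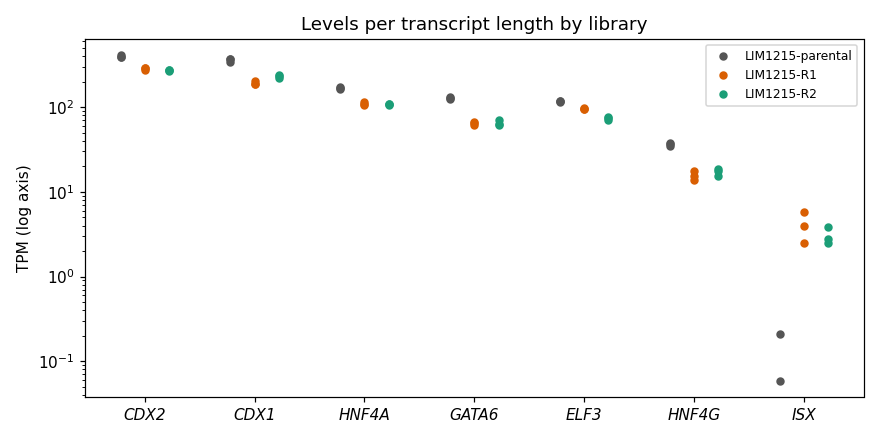
TPM of each factor (logarithmic axis) in the 3 libraries of each line, ordered by the parental mean and computed with the longest transcript. LIM1215-parental replicate 2 had 0 counts of ISX and is not drawn, and ISX is the only factor for which the resistant points lie above the parental ones.

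The genes whose profile over the 9 libraries was closest to that of each member, among 11041 protein-coding genes with a mean of at least 1 CPM, were found by the root mean square difference of centred log2 CPM. They were DGKD and DAB2IP for CDX1, TNS3 and NUCB1 for CDX2, CNNM4 and RGMB for HNF4A, OAT and MTARC1 for HNF4G, SLC49A4 and SLC1A4 for GATA6, ASB4 and IL33 for ISX, and COL16A1 and TMPRSS4 for ELF3. The root mean square difference was 0.0272 for CDX2 and TNS3, the closest pair, and 0.401 for ISX and ASB4. The 9 libraries fall into 3 lines, so that many genes share such a profile: between 109 genes for ELF3 and 407 for GATA6 had a Pearson correlation over 0.95 with the member. With that correlation in place of the root mean square difference, 3 of the 14 genes were the same.

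Within 50000 bases of the members, the gene that moved most clearly with its neighbour was GATA6-AS1, a non-coding RNA on the opposite strand that starts 621 bases from GATA6. Its level was 2.98 ± 0.378 CPM in parental cells, 1.14 ± 0.144 in LIM1215-R1 and 0.687 ± 0.149 in LIM1215-R2. It fell by 1.39 on the log2 scale in LIM1215-R1 (adjusted p = 4.14e-05) and by 2.12 in LIM1215-R2 (adjusted p = 3.08e-07), on counts assigned to the opposite strand from GATA6. Around ISX, LOC124905110, which lies inside ISX on the opposite strand, had 0 counts in parental cells, 8 in LIM1215-R1 and 15 in LIM1215-R2, and LINC01399, 32437 bases away, had 0, 4 and 16. Both were called higher in LIM1215-R2, by at least 5.16-fold for LOC124905110 and at least 5.51-fold for LINC01399, against 3 counts over the parental libraries, and the call of LOC124905110 was lost without any single parental library, without LIM1215-R1 replicate 3 and without LIM1215-R2 replicate 2 or 3. PDX1, LINC00543 and URAD around CDX2 and ELF3-AS1 next to ELF3 were not called in either line. SLC6A7, 5504 bases from CDX1, was called lower in LIM1215-R1 (-1.32, adjusted p = 0.000709) and had -0.81 in LIM1215-R2 (adjusted p = 0.0246). Next to HNF4A, R3HDML-AS1 was called lower in LIM1215-R2 (-0.79, adjusted p = 0.00263, lost without LIM1215-parental replicate 3 or LIM1215-R2 replicate 3) and had -0.43 in LIM1215-R1 (adjusted p = 0.0831). TTPAL, 41278 bases from HNF4A, moved against it and was higher by 0.30 in LIM1215-R1 (adjusted p = 0.000984, lost without LIM1215-parental replicate 3) and by 0.34 in LIM1215-R2 (adjusted p = 0.000224). RNPEP, 4444 bases from ELF3, was lower by 0.34 and 0.31 on the log2 scale (-0.34 and -0.31, adjusted p = 4.17e-06 and 1.86e-05). TIMM17A on the same side of ELF3 was higher by 0.31 and 0.28 (adjusted p = 6.12e-05 and 0.000212).

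Among 22 other transcription factors of the gut, 18 were tested, and both directions occurred. In LIM1215-R1, 3 of 18 rose and 5 fell, beside 14% and 13.4% of all genes tested, so that 3 of 18 higher is near the share of all genes. In LIM1215-R2, 5 rose and 4 fell, beside 12.3% and 11.6% of all genes. The median log2 fold changes of the list were -0.02 in LIM1215-R1 and -0.13 in LIM1215-R2. NR5A2, a nuclear receptor of crypts, fell the most among those called, from 7.02 ± 0.622 CPM to 1.74 ± 0.283 in LIM1215-R1 and 1.17 ± 0.429 in LIM1215-R2 (log2 fold changes -2.01 and -2.57, adjusted p = 3.28e-09 and 1.08e-10). VDR, the vitamin D receptor, fell by 0.96 and 0.94, KLF5, a factor of proliferating crypt cells, by 0.73 and 0.83, and FOXA1, a pioneer factor of endoderm, by 0.40 and 0.39 on the log2 scale. FOXA2 fell by 0.92 in LIM1215-R1 and had -0.38 in LIM1215-R2 (adjusted p = 0.0464). PRDM1, a repressor of the fetal intestine, rose from 1.57 ± 0.385 CPM to 7.82 ± 0.132 and 7.24 ± 0.351 (log2 fold changes 2.33 and 2.22, adjusted p = 1.38e-11 and 4.64e-11). KLF4, a factor of differentiated cells, rose by 0.81 and 1.11, and ONECUT2 rose by 0.61 and 0.67. PROX1 rose in LIM1215-R2 (0.76) with 0.08 in LIM1215-R1. TCF7L2 was called higher in LIM1215-R2 (0.24, adjusted p = 0.00586), a call that was lost without LIM1215-parental replicate 1 or 3 and without LIM1215-R2 replicate 1 or 2. CDX4, GATA4, GATA5 and ELF5 had 0 counts in every library.

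Of 13 genes known as targets of CDX proteins, 12 were tested, and 2 rose and 6 fell in each resistant line. Of all genes tested, 14% rose and 13.4% fell in LIM1215-R1 and 12.3% rose and 11.6% fell in LIM1215-R2, so that 2 of 12 higher is near the share of all genes. The list had median log2 fold changes of -0.16 in LIM1215-R1 and -0.48 in LIM1215-R2. CDH17, the liver-intestine cadherin and a direct CDX2 target, had 598 ± 18.0 CPM in parental cells, 415 ± 8.12 in LIM1215-R1 and 399 ± 8.0 in LIM1215-R2 (log2 fold changes -0.53 and -0.58, adjusted p = 1.83e-11 and 2.28e-12). GUCY2C, the guanylin receptor, fell from 27.1 ± 2.54 CPM to 8.90 ± 0.698 and 6.38 ± 1.23 (log2 fold changes -1.61 and -2.09, adjusted p = 2.89e-12 and 3.80e-14). LGALS4, a galectin of the brush border, fell by 0.23 and 0.37. MEP1A, a brush border protease, went from 43 counts to 3 and 5, and CA1, a colonic carbonic anhydrase, from 62 counts to 9 and 6. SI, the disaccharidase sucrase-isomaltase, had 16 counts in parental and 0 in resistant libraries, which is at least 5.16-fold lower in LIM1215-R1, and its call was lost in LIM1215-R1 without any single LIM1215-R1 library and in LIM1215-R2 without any single LIM1215-R2 library, while without LIM1215-parental replicate 1 it had too few counts to be tested. With DESeq2 the call of SI was lost in LIM1215-R2 (adjusted p = 0.0161) and no adjusted p was given in LIM1215-R1. VIL1, the microvillus protein villin, rose by 0.40 and 0.26 (adjusted p = 6.64e-09 and 8.94e-06). The goblet cell mucin MUC2 was called higher in LIM1215-R1 (1.01, adjusted p = 0.00201, lost without LIM1215-parental replicate 1) and had 0.62 in LIM1215-R2 (adjusted p = 0.0737), and the difference between the resistant lines was not called (-0.39, adjusted p = 0.322). The colonic surface antigen GPA33 was called higher in LIM1215-R2 (0.46, adjusted p = 1.04e-08) and had 0.16 in LIM1215-R1 (adjusted p = 0.0118), where it was called higher with DESeq2 (0.00932), without LIM1215-parental replicate 2 (0.000358) and without LIM1215-R1 replicate 1 (0.00641). KRT20 had 0 counts in all libraries.

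**Figure D5:**
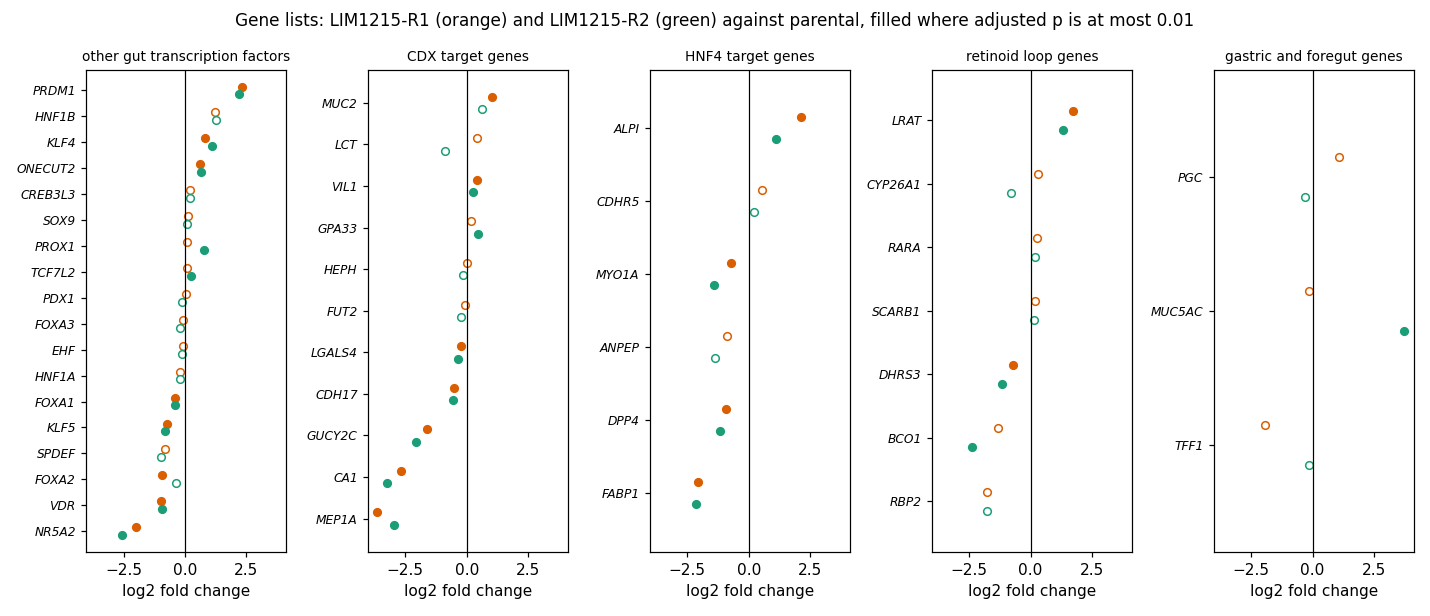
Log2 fold changes (horizontal axes) of the tested genes of 5 lists in LIM1215-R1 (orange) and LIM1215-R2 (green) against parental cells, filled where the adjusted p was at most 0.01 and without genes that had 0 counts in a line. The other gut factors spread to both sides of 0, and most called CDX and HNF4 targets lie to the left.

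Of 14 genes known as targets of HNF4 factors, 7 had enough counts to be tested, while APOB, APOA4 and SERPINA1 had 0 counts and APOA1, APOC3, MTTP and TTR had at most 4 in all libraries of a line. In each resistant line 1 of 7 rose, which is near the 14% and 12.3% of all genes, and 4 fell, beside 13.4% and 11.6% of all genes, with median log2 fold changes of -0.88 and -1.39. FABP1, the fatty acid-binding protein of liver and gut, had 4.48, 3.18 and 4.73 CPM in parental cells and between 0.681 and 1.13 CPM in the resistant libraries (log2 fold changes -2.06 and -2.15, adjusted p = 9.22e-08 and 5.10e-08). FABP2, its intestinal counterpart, had 22 counts in parental and 0 in resistant cells, at least 7.10-fold lower in both lines. MYO1A, the brush border myosin, fell from 66.1 ± 4.39 CPM to 40.1 ± 1.33 and 24.6 ± 0.341 (log2 fold changes -0.72 and -1.43), and DPP4, a brush border peptidase, fell by 0.91 and 1.16. ALPI, the intestinal alkaline phosphatase, was the gene that rose, from 0.993 ± 0.226 CPM to 4.44 ± 0.665 in LIM1215-R1 and 2.17 ± 0.434 in LIM1215-R2 (log2 fold changes 2.14 and 1.10, adjusted p = 2.97e-08 and 0.00167). The call of ALPI in LIM1215-R2 was lost without LIM1215-parental replicate 3 and without LIM1215-R2 replicate 2 or 3. Whether related alkaline phosphatase genes affected its counts was not tested. ANPEP was not called. CDHR5, a cadherin of the brush border, was higher in all LIM1215-R1 libraries than in parental ones but missed the threshold (0.54, adjusted p = 0.0135), and it was called higher with no filter on low counts (0.00266) and without LIM1215-R1 replicate 1 (0.00313).

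ISX acts in a feedback loop in which retinoic acid made from carotenoids induces ISX, and ISX represses the carotenoid receptor SCARB1 and the cleaving enzyme BCO1. Of 9 genes of the loop, 8 were tested, with 1 higher and 2 lower in LIM1215-R1 and 1 higher and 3 lower in LIM1215-R2, and median log2 fold changes of -0.26 and -0.98. With 14% of all genes higher and 13.4% lower in LIM1215-R1, and 12.3% and 11.6% in LIM1215-R2, counts this small are not a result about the loop. SCARB1 was not called, with 117 ± 12.3 CPM in parental cells, 133 ± 8.45 in LIM1215-R1 and 128 ± 7.20 in LIM1215-R2 (log2 fold changes 0.19 and 0.13, adjusted p = 0.0175 and 0.12), although without LIM1215-parental replicate 2 it was called higher in LIM1215-R1 (adjusted p = 0.000221) and in LIM1215-R2 (0.00369). BCO1 had 45 counts in parental cells, 17 in LIM1215-R1 and 8 in LIM1215-R2 and was called lower in LIM1215-R2 (log2 fold change -2.38, adjusted p = 0.000824, against -1.33 and 0.0242 in LIM1215-R1). ALDH1A1, which makes retinoic acid, had 78 counts in parental cells, 2 in LIM1215-R1 and 0 in LIM1215-R2. In LIM1215-R2 it was 25.2-fold lower against a floor of 3 counts, and the exact 95% counting interval of the ratio ended at 0.05. In LIM1215-R1 the ratio of ALDH1A1 was 0.0265 (exact 95% counting interval 0.00315 to 0.099). DHRS3, a retinal reductase induced by retinoic acid, fell by 0.71 and 1.18 on the log2 scale, and LRAT, which esterifies retinol, rose by 1.71 and 1.33, although its call in LIM1215-R2 was lost without LIM1215-parental replicate 1 or 2, without any single LIM1215-R2 library and with DESeq2 (adjusted p = 0.0134). CYP26A1, a retinoic acid target, had 9, 11 and 5 counts and was not called. Without parental replicate 2, or without LIM1215-R1 replicate 1, 5 genes of the loop were called in LIM1215-R1 in place of 3, with SCARB1 and RARA added.

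Loss of CDX2 in the gut is classically accompanied by gastric genes, and a list of 12 gastric and foregut genes was therefore read beside the members. Here CDX2 was reduced but not lost, at 73.9% of the parental level in LIM1215-R1 and 68.5% in LIM1215-R2. Whether its level bears on these genes was not tested. Only 4 of 12 had enough counts to be tested, with 1 higher in LIM1215-R1 and 2 higher in LIM1215-R2, beside 14% and 12.3% of all genes. The median log2 fold changes of 0.48 and 1.80 each lie between genes that differ widely and describe no gene of the list. SOX2, the foregut factor, had 1 count over the 9 libraries, and TFF2, CLDN18, GKN1 and GKN2 had 0. MUC6, a gland mucin of the stomach, had 0 counts in parental cells, 17 in LIM1215-R1 (at least 5.86-fold higher) and 66 in LIM1215-R2 (at least 22.7-fold higher). The foveolar mucin MUC5AC was near 22.3 ± 4.18 CPM in parental and 20.1 ± 1.34 CPM in LIM1215-R1 cells (adjusted p = 0.288) and reached 296 ± 2.24 CPM in LIM1215-R2 (log2 fold change 3.74, adjusted p = 3.21e-23). TFF1 and PGC were not called.

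Markers of other cell types were low, and their part in the results was not tested. Of 4 immune markers, PTPRC and CD3E had 0 counts in every library, and CD68, which is not restricted to immune cells, gave most of the sum of 6.90 to 10.1 CPM in parental, 11.8 to 14.4 in LIM1215-R1 and 8.56 to 10.5 CPM in LIM1215-R2 libraries, and CD68 rose in LIM1215-R1 (0.70, adjusted p = 9.24e-05). The 5 fibroblast markers summed to 2.46 to 3.01 CPM in parental cells, 1.63 to 1.72 in LIM1215-R1 and 1.13 to 1.61 in LIM1215-R2. COL1A2 had 0 counts, while COL1A1 had 62, 40 and 32 counts and PDGFRB 62, 41 and 32, and neither was called. The 3 endothelial markers summed to 0.118 to 0.722 CPM in parental cells, 0.0626 to 0.184 in LIM1215-R1 and 0 to 0.0653 in LIM1215-R2. PECAM1 had 15 counts in parental cells, 10 of them in replicate 2, and 0 in resistant cells, and was called lower in both resistant lines. Without LIM1215-parental replicate 2 it had too few counts to be tested. In each line the call was lost without any single library of that line, and in LIM1215-R2 also with DESeq2 (adjusted p = 0.018). The 5 epithelial markers summed to 11400 to 11700 CPM in parental cells, 15000 to 15300 in LIM1215-R1 and 13600 to 14000 in LIM1215-R2, where KRT8, KRT18 and KRT19 rose, EPCAM fell (log2 fold changes -0.26 and -0.32) and CDH1 was not called. Among 4 hepatocyte markers, read because HNF4A is also a liver factor, ALB had 9, 3 and 5 counts, AFP fell in LIM1215-R2 (37 to 6 counts, lost without LIM1215-R2 replicate 2), and CPS1, which enterocytes also express, had 28.9 ± 1.77, 29.6 ± 1.43 and 33.7 ± 1.47 CPM.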

How the data were processed

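Stranded poly(A) libraries of the 3 lines, 3 per line, were read from both ends by the authors, who aligned the reads to hg38 with STAR and used htseq-count 0.9.1 with its reverse-strand setting to count them. The deposited values are raw counts without normalization. The gene annotation is not given in the sources used here. Total counts lay between 13737416 and 18725014 per library, and precision for genes with few counts is given by exact 95% counting intervals.

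Genes needed 10 or more counts, summed over the 9 libraries, and edgeR 4.0.16 (R 4.3.3) was used with TMM scaling and a quasi-likelihood model of all 9 libraries, grouped by line, with Benjamini-Hochberg adjustment over 19102 genes. The SE was derived from the test statistic. The fit was first run on simulated counts with the same spread for all genes and known changes in well-counted genes only. That simulation does not cover genes with as few counts as ISX. Ratios of related genes were compared with an exact permutation test in SciPy 1.17.1, and TPM used GENCODE lengths. The members and gene lists were chosen with earlier results of these data known, and 2 genes of the lists are not reported here and were left out of the list counts. All members, other list genes, genes within 50000 bases of a member and the 2 genes closest in profile could be named. A fold against a line at 0 counts uses 3 counts over that line as a floor. Such a fold is not a lower limit, which the exact interval gives. Alternatives were other filters, scalings and thresholds, DESeq2 1.42.0, fits to 6 libraries, a replicate block and leaving out each library, and, added after the data were seen, removal of trends on GC content and length. The replicate numbers were not used to pair the libraries in the main fit.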

Additional observations from a re-analysis of the deposited data

Results flagged for a closer look

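The following results differed between the resistant lines in the same fit over all genes tested, given as log2 fold changes of LIM1215-R2 against LIM1215-R1 with adjusted p-values from edgeR. ELF3 was lower in LIM1215-R2 (-0.42, adjusted p = 4.74e-07). Among the other gut factors, KLF4 (0.30, adjusted p = 0.00474) and PROX1 (0.68, adjusted p = 4.08e-07) were higher in LIM1215-R2, and the call of KLF4 was lost without any single library of LIM1215-R1 or LIM1215-R2. Among the CDX and HNF4 targets, GPA33 was higher (0.31, adjusted p = 4.88e-05), while ALPI (-1.04, adjusted p = 0.000875, lost without LIM1215-R2 replicate 1) and MYO1A (-0.71, adjusted p = 5.20e-08) were lower. Of the gastric genes, MUC5AC (3.88, adjusted p = 7.44e-23) and MUC6 (1.93, adjusted p = 0.00237) were higher in LIM1215-R2, and the call of MUC6 was lost without LIM1215-R1 replicate 1 or 3, without LIM1215-R2 replicate 1 or 2 and with DESeq2.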

How the results depend on the processing

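All 7 members were called in both resistant lines, in the same direction, under each alternative scaling, the DESeq2 fits, the fit to the 6 libraries of a comparison, the replicate block, the removal of trends on GC content and length and without each library in turn (7 to 7 in both lines). The sizes were less stable than the calls. With those trends removed, CDX1 in LIM1215-R1 moved from -0.85 to -1.07 and CDX2 from -0.44 to -0.61. The 95% intervals do not cover such choices of processing. With at least 10 counts required in every library ISX was not tested and the other 6 were called. At the DEG threshold 1 member was called in each line, and requiring a change of 1 or more on the log2 scale it was 2. Between the resistant lines the count of 1 became 2, with CDX1 added to ELF3, with no filter on low counts, with total counts only, with the DESeq2 Wald test and lfcShrink, with the replicate block, with an adjusted p of at most 0.05 and in a fit, chosen after seeing the data, that took out trends on GC content and length (CDX1 0.30, adjusted p = 2.28e-07). It was 0 at the DEG threshold and when 1 or more on the log2 scale was required, and 1 to 2 without each library. The difference of GATA6 between the resistant lines, not called, was 0.02 in that fit (adjusted p = 0.893). The cause of these changes was not tested. GC content and length were known for 86.3% of the genes tested.

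Replicate numbers were shared by the lines, but deviations of libraries with the same number had correlations of only -0.0186 to 0.0984, and 5 of 9 libraries correlated best with their own number. With the number as a block, calls over all genes went from 5222 to 5841 in LIM1215-R1, from 4554 to 5197 in LIM1215-R2 and from 1368 to 2044 between the resistant lines.

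The log2 ratio differences of CDX1 to CDX2 were -0.44 to -0.38, -0.13 to -0.07 and 0.29 to 0.34 without each library, and those of HNF4G to HNF4A were -0.73 to -0.51, -0.50 to -0.35 and 0.07 to 0.30, in the order LIM1215-R1, LIM1215-R2 and LIM1215-R2 against LIM1215-R1. In the order of TPM, 7 of 7 members kept their place without each library, while with mean transcript lengths 3 kept it in LIM1215-parental and 4 in LIM1215-R2. Of 270 alternative counts of called list genes, 241 lay within 1.5 times the main count. With at least 10 counts required in every library, the called CDX targets went from 8 to 5 in each resistant line, the retinoid genes from 3 and 4 to 1 in each, and the gastric genes from 1 to 0 and from 2 to 1, since fewer genes were tested. With the block, called CDX targets between the resistant lines went from 1 to 3. Scaling alternatives moved the median of all genes by at most -0.0342. Depth limits ISX and the list genes with under 10 counts in a line most.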
